A study of Mus musculus with 8 samples.

Results

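The cells described here were mouse embryonic stem (mES) cells that carried transcripts of Krt15 after treatment with CX-5461, an inhibitor of RNA polymerase I, the enzyme that transcribes ribosomal RNA genes. A cell was kept when it had at least 5000 UMIs (unique molecular identifiers, each counting 1 captured transcript), at most 0.1 of them from mitochondrial genes, and less than 0.1% of them from the collagen genes Col1a1, Col1a2 and Col3a1. Kept cells with 2 or more Krt15 UMIs were called Krt15+ cells. The cells were thus selected on their measured Krt15 UMIs, and they numbered 264 of the 4029 kept cells of the CX-5461 table and of 8760 barcodes in both tables. The series held 2 groups, untreated mES cells and mES cells given CX-5461, both derived from the inner cell mass, without a genetic change named in the labels, and grown in LIF/2i medium on mouse embryonic fibroblast feeders. The labels gave neither the dose nor the length of the treatment. They listed 4 samples for each group, but all barcodes of a group stood in 1 table with no sample of origin, and the study's supplement gives 1 biological replicate, so each group was 1 library and no difference between cells was tested. Every interval below is an exact 95% interval that covers counting error only.

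Krt15 encodes a type I keratin, an intermediate filament protein known from basal and stem cells of stratified epithelia. mES cells are held in a self-renewing state by transcription factors such as Pou5f1 (Oct4), Sox2 and Nanog, and in 2i medium by further factors of naive pluripotency such as Esrrb, Klf4 and Zfp42 (Rex1). Impaired ribosome production is known to stabilise p53 through ribosomal proteins that bind Mdm2, and p53 then activates genes of cell cycle arrest, apoptosis and its own feedback.

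The CX-5461 table held 69841836 UMIs in 4922 barcodes and that of untreated cells had 49610287 in 3838, and kept cells had a median of 14674 and 15714 UMIs. For the comparison each Krt15+ cell was set beside the 3 kept CX-5461 cells with 0 Krt15 UMIs that were nearest in total UMIs (792 matched cells) and beside 3 untreated cells chosen in the same way (792 untreated cells). The median total was 13368 UMIs in the Krt15+ cells, 13366 in the matched cells and 13367 in the untreated cells. Before matching, all 3356 kept CX-5461 cells with 0 Krt15 UMIs had a median of 14922, so the Krt15+ cells were not the deeper cells of their library. Levels are given as CPM (UMIs of a gene per 1000000 UMIs of the group).

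Krt15 is a protein-coding gene on the minus strand of chr11:100131758-100135928 (GRCm38). It had 0 UMIs in the whole untreated table and 1377 in the whole CX-5461 table, none of them marked by the authors as shared with another gene. Of the 2513 kept untreated cells 0 had a Krt15 UMI, for which a limit of 3 counts leaves room for 0.119% and the exact upper bound is 0.147%, while 673 of the 4029 kept CX-5461 cells had at least 1 (16.7%, 15.6 to 17.9) and 264 had at least 2 (6.55%, 5.81 to 7.36). The counts show no gap at the limit. Just outside it lay 409 cells with 1 UMI and just inside it 128 cells with 2, while 59 had 3, and 77 had 4 or more, up to 12 in 1 cell. The variance of Krt15 UMIs over kept cells was 3.03 times their mean, and the Krt15+ cells held 876 of the 1285 UMIs (68.2%). Within the Krt15+ cells the level ran from 66.9 CPM through a median of 198 to 1164 CPM. Among 149 collagen-rich barcodes of the same library, which should lack the gene and had a median of 24280 UMIs, 0 had a Krt15 UMI, with an upper bound of 2.45%.

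**Figure D1:**
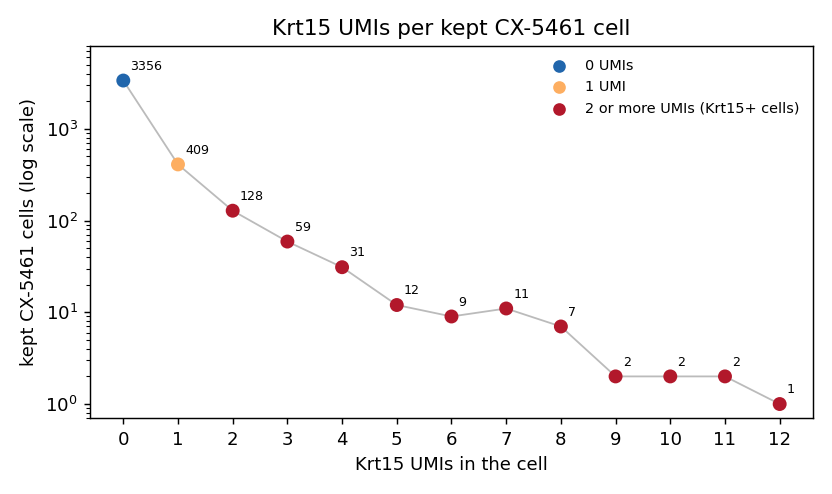
Number of kept CX-5461 cells (vertical axis, log scale) by their Krt15 UMIs (horizontal axis), with the count printed beside each point. The numbers decline from 3356 cells with 0 UMIs to 1 cell with 12, with no gap between the 409 cells with 1 UMI and the 128 with 2.

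The ES cell label was checked against 7 markers. Pou5f1 was detected in 97% of Krt15+ cells, 99.5% of matched cells and 27.5% of the collagen-rich barcodes. Dppa5a, a naive-state RNA-binding protein gene, was detected in all 264 Krt15+ cells but also in 83.9% of collagen-rich barcodes, so that its detection set them little apart. At least 4 of the 7 markers (Pou5f1, Sox2, Nanog, Zfp42, Esrrb, Tdgf1 and Dppa5a) were found in 70.8% of Krt15+ cells (64.9 to 76.2), 98.4% of matched cells, 98% of untreated cells and 4.7% of collagen-rich barcodes. Defining markers of other cell types gave few UMIs in the Krt15+ cells. All 4 macrophage markers stood at 3 UMIs or fewer over the 264 cells, as did 2 of 4 trophoblast markers, 2 of 4 primitive endoderm markers and 3 of 5 fibroblast markers. The fibroblast markers included Col1a1, Col1a2 and Col3a1, which the choice of cells had limited. Their low level was set by that choice and says nothing on the ES cell label. The summed markers came to 3.83 CPM against 6.02 in matched cells for trophoblast, 6.84 against 3.19 for primitive endoderm and 23 against 14.6 for fibroblasts. Among the trophoblast markers Cdx2 was at 1.64 against 3.28 CPM and Gata3 at 1.64 against 0.912. Of the primitive endoderm markers Gata6 had most UMIs, 17 against 21 (4.65 against 1.91 CPM, ratio 2.43, 1.2 to 4.83), and Gata4 was at 0.273 against 0.365 CPM. The 5 keratinocyte markers summed to 86.1 CPM against 20.8, of which Krt5 alone gave 75.2 CPM, while 2 of the 5 stood at 3 UMIs or fewer. The median mitochondrial share was 4.06% in Krt15+ and in matched cells and 2.02% in untreated cells, and ribosomal protein genes took 24.4%, 24.2% and 28.4%.

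The 4 genes proposed as companions of Krt15 were all far higher in Krt15+ cells, next to absent from untreated cells and at an intermediate level in matched cells. They were proposed from these same cells, so the values describe them. Rgs14, a regulator of G protein signalling, was at 127 CPM in Krt15+ cells, 8.48 in matched cells and 0.0912 in untreated cells, a ratio of Krt15+ to matched cells of 14.9 (11.9 to 18.9). Robo3, a receptor of axon guidance, was at 181, 21.2 and 0.0912 CPM, a ratio of 8.53 (7.34 to 9.95). Dpep3, a membrane-bound dipeptidase, was at 321, 40.7 and 0.0912 CPM, a ratio of 7.90 (7.07 to 8.82). Pgf, the placental growth factor of the VEGF family, was at 93.2, 12.9 and 0.547 CPM, a ratio of 7.20 (5.91 to 8.82). Each value of 0.0912 CPM is 1 UMI in the 792 matched untreated cells together. In all 2513 kept untreated cells Rgs14 had 4 UMIs, Robo3 5 and Dpep3 10.

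The 4 companions occurred in the same cells. All 4 were detected in 99 Krt15+ cells (37.5%, 31.6 to 43.6) and in 8 matched cells (1.01%, 0.437 to 1.98). None was detected in 13 Krt15+ cells (4.92%), 390 matched cells (49.2%) and 783 of 792 untreated cells. When every cell was thinned to 5000 UMIs, Dpep3 was still detected in 64.4% of Krt15+ and 15.5% of matched cells, Robo3 in 50.8% and 10.7%, Rgs14 in 40.2% and 4.55%, and Pgf in 32.2% and 6.82%. The unthinned shares were 85.2% and 32.8% for Dpep3, 75% and 20.3% for Robo3, 54.9% and 8.21% for Rgs14, and 58% and 14.9% for Pgf.

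**Figure D2:**
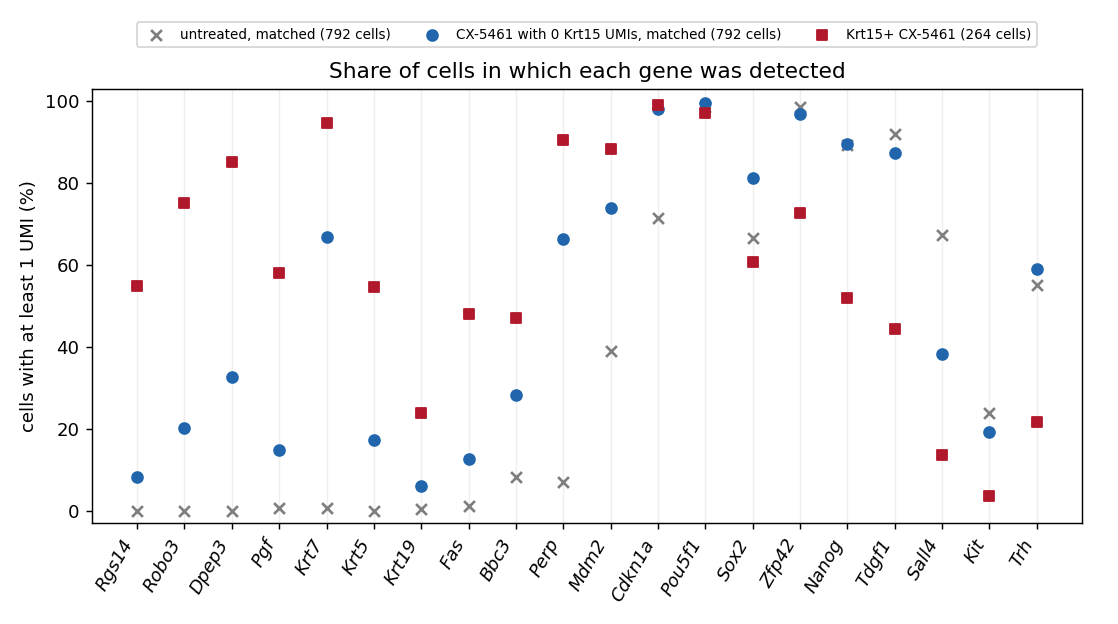
Percentage of cells with at least 1 UMI of each gene (vertical axis) in Krt15+ cells (squares), matched CX-5461 cells with 0 Krt15 UMIs (circles) and matched untreated cells (crosses). The companion genes and keratins stand highest in Krt15+ cells, Cdkn1a is alike in both CX-5461 groups (98.9% and 98%), and Nanog, Tdgf1 and Sall4 are lowest in Krt15+ cells.

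Across the transcriptome, 8427 genes had at least 100 UMIs over the Krt15+ and matched cells. A gene was counted as past the fold when its ratio was at least 1.5 or at most the inverse. Of all these genes 1325 were higher by that rule (15.7%) and 1052 lower (12.5%), and the median log2 ratio was -0.033, with 46.3% of genes above 0. At least 3-fold higher were 273 genes and at least 3-fold lower 41. These numbers cannot be set against each other, since a gene scarce in matched cells reached the minimum of 100 UMIs only through high counts in Krt15+ cells. The 273 genes had a median level of 36.6 CPM in Krt15+ cells, 8.66 in matched cells and 1.19 in untreated cells, and 63 of them had 3 UMIs or fewer in the untreated cells. The 41 genes had a median of 4.92, 15.7 and 21.2 CPM.

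Among the 10 genes with the highest ratio, beside Rgs14, several were broadly detected. Itgb2, the beta 2 integrin subunit of leukocytes, was found in 53.4% of Krt15+ and 7.7% of matched cells (72.7 and 6.47 CPM, ratio 11.2, 8.62 to 14.8). Serpinf1, the secreted pigment epithelium-derived factor, was found in 48.5% and 8.33% (80.1 and 7.75 CPM, ratio 10.3). Sbp, known as spermine binding protein, was at 47.6 CPM against 3.56, Apol8, an apolipoprotein L gene, at 29.3 against 2.1, Prss34, a serine protease gene, at 28.7 against 2.83, and Gm12248, an uncharacterised locus, at 41.8 against 3.1. All 4 were detected in 29.2% to 37.5% of Krt15+ cells and in under 5% of matched cells. The 4 macrophage markers together had 1 UMI in the Krt15+ cells.

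The 3 remaining genes of the highest 10, Gm20767, Gm21818 and Gm21761, owed their rank to few cells. Gm20767 had 95 UMIs in 7 of the 264 Krt15+ cells, 40 of them in 1 cell. The 2C list, genes switched on in the mouse embryo at the two-cell stage and in rare 2C-like ES cells, had 1161 UMIs in Krt15+ cells together with Gm21818 and Gm21761, which were added to it after their values were seen, and 496 and 287 of these UMIs came from a pair of cells. At least 5 UMIs of this extended list were found in 14 Krt15+ cells (5.3%, 2.93 to 8.74), 17 matched cells (2.15%, 1.26 to 3.41) and 3 untreated cells (0.379%). These loci include near-identical copies among which reads could be divided. The log2 ratios of Gm20767, Gm21818 and Gm21761 were 4.35, 4.22 and 4.15. Once cells with at least 5 UMIs of the extended list were left out of both groups they were -0.69, 0.78 and 1.95, and against all kept cells with 0 Krt15 UMIs, without matching, 1.03, 1.21 and 1.11.

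Among the 10 genes with the lowest ratio, Kit, the receptor of stem cell factor, was at 3.01 CPM in Krt15+ cells, 15.7 in matched and 20.2 in untreated cells (ratio 0.192, 0.094 to 0.352). Trh, the thyrotropin-releasing hormone gene, was the most abundant of them, at 51.1, 213 and 96.1 CPM (ratio 0.239, 0.205 to 0.278). Tcl1, a coactivator of Akt kinase expressed in ES cells, was at 11.8, 43.9 and 62.2 CPM, and Nfib, a nuclear factor I transcription factor, at 3.55, 13.4 and 30.6 CPM. Spic, an Ets-family factor, Smtnl2, Oasl1, Cpsf4l and the antisense gene Srrm4os were also at a ratio between 0.221 and 0.249. Srrm4os lies antisense to another gene, and whether the counting used strand is not given in the sources used here. Acta2, the smooth muscle actin gene, had the lowest ratio, 0.0943, but was found in 1.14% of Krt15+ and 1.39% of matched cells, so that few cells decided it. Its log2 ratio was 0.78 with at least 3 Krt15 UMIs required.

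The p53 list was higher in the Krt15+ cells than in matched cells of the same treated library, and higher in both than in untreated cells. Of its 42 genes, 38 had enough UMIs, and 34 of these were higher and 4 lower. Past the fold were 23 higher and 0 lower, against the 15.7% and 12.5% of all genes, with a median log2 ratio of 0.67 against -0.033. The summed level was 8497 CPM in Krt15+ cells, 6482 in matched cells and 3703 in untreated cells, a ratio of Krt15+ to matched cells of 1.31 (1.29 to 1.33).

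By role, 7 of 11 apoptosis genes, 8 of 12 repair and metabolism genes and 8 of 15 feedback and arrest genes were past the fold and higher. Fas, the death receptor, had the largest ratio, 4.84 (3.83 to 6.14), with 52.5 CPM in Krt15+ cells, 10.8 in matched and 1.46 in untreated cells. Bbc3 (Puma), a killer protein of the Bcl-2 family, was at 50.9, 24.3 and 6.38 CPM, and Perp, a membrane protein of desmosomes and p53-driven death, at 200, 99.3 and 6.75 CPM. Bax, the pore-forming member of the Bcl-2 family, was within the fold at 1165 against 998 CPM (ratio 1.17). Pmaip1 (Noxa), at 21.6 against 16.8 CPM, had an interval that reached below 1 (0.977 to 1.69).

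Among feedback genes, Mdm2, the ubiquitin ligase of p53, was at 263, 131 and 41.1 CPM (ratio 2.00, 1.84 to 2.17), Btg2, an antiproliferative cofactor, at 327, 167 and 21.5 CPM (ratio 1.95), and Ppm1d, the phosphatase Wip1, at 14.5, 6.84 and 3.01 CPM (ratio 2.12). Cdkn1a (p21), the inhibitor of cyclin-dependent kinases, was nearly level between the CX-5461 groups at 597 and 556 CPM (ratio 1.07, 1.02 to 1.13), both above the 186 CPM of untreated cells. Ccng1 was also within the fold (390 against 333 CPM), and Trp53inp1 just short of it (115 against 77.9 CPM, ratio 1.47). Trp53 itself was at 249, 297 and 276 CPM (ratio 0.839, 0.779 to 0.903). Among repair and metabolism genes the highest were Ephx1, an epoxide hydrolase, at 45.1 against 17.1 CPM (ratio 2.63), Pltp, a phospholipid transfer protein, at 111 against 49.4 CPM (ratio 2.24), and Fdxr, a mitochondrial reductase, at 17.8 against 8.75 CPM (ratio 2.03). The log2 ratio of Fdxr was 1.02, and 0.35 with cells thinned to 5000 UMIs. Tigar, a regulator of glycolysis, was at 41.8 against 60.3 CPM (ratio 0.693).

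The promoters of genes higher in Krt15+ cells were searched for the p53 half-site consensus, the decamer of which a full p53 element holds a pair. It reads the same on both strands, so 1 search covered both. RefSeq promoters of GRCm38.p6 (250 bases before to 50 after the start) were on hand for 3 of the 5 marker genes, Robo3, Dpep3 and Pgf. A half-site lay in 29 of 272 promoters of genes at least 3-fold higher (10.7%), 1 of 30 of those at least 3-fold lower (3.33%), 545 of 7951 of all genes compared (6.85%) and 2745 of 32851 in the whole table (8.36%). A match is a description of the letters and not a bound site. The 4 sequences below show a keratin and a feedback gene whose promoter holds a match, in capitals, and 2 companion genes whose window holds none. Krt5 and Mdm2 were the only ones with a match among 8 genes that were looked up and had a promoter on hand. The others were Krt7, Btg2, Fas, Pgf, Dpep3 and Robo3, while Krt15, Rgs14, Krt19 and Perp had no promoter on hand. Sites outside the window were not searched.
Krt5, chr15:101712856-101713155, minus strand: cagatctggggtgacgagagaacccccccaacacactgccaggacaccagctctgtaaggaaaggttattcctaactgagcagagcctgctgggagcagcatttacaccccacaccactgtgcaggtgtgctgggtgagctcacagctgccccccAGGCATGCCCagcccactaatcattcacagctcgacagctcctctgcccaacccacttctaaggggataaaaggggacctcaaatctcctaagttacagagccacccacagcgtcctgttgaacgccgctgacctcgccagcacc
Mdm2, chr10:117710709-117711008, minus strand: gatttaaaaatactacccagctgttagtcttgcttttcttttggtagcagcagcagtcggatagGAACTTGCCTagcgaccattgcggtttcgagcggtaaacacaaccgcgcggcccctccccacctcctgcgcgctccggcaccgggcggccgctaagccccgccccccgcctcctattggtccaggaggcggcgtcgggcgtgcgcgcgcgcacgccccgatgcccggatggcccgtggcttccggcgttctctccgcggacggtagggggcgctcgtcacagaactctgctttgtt
Dpep3, chr8:105979370-105979669, minus strand: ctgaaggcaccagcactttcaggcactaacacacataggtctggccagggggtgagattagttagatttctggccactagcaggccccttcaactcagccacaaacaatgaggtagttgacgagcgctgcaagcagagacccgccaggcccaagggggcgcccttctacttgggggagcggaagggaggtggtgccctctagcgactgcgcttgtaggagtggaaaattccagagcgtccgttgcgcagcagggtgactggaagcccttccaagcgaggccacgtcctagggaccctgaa
Robo3, chr9:37433126-37433425, minus strand: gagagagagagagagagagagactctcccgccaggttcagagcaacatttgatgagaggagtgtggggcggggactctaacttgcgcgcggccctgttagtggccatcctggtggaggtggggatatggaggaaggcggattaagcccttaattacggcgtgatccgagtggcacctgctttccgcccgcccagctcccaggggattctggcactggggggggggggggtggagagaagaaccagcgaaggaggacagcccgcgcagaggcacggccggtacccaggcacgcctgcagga

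The pluripotency list was lower in the Krt15+ cells. Of its 28 genes 27 had enough UMIs, and 26 were lower and 1 higher, with 15 past the fold lower and 0 higher, against 12.5% and 15.7% of all genes, and a median log2 ratio of -0.66. The summed level was 6932 CPM in Krt15+ cells, 9625 in matched and 8986 in untreated cells (ratio 0.72, 0.71 to 0.73). By this sum the matched CX-5461 cells stood above the untreated cells and the Krt15+ cells below both. Abundant genes weigh most in such a sum, and Dppa5a alone was at 4460, 5790 and 4855 CPM in the same order. The 8 core genes summed to 888, 1401 and 1544 CPM, so for them the matched cells stood below the untreated cells.

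Of the core factors, Pou5f1 was at 516, 758 and 920 CPM (ratio 0.681, 0.647 to 0.716) and Sox2 at 98.7, 144 and 93 CPM (ratio 0.685), both short of the fold. Sall4, a zinc finger partner of Pou5f1, had the lowest ratio, 0.31 (0.219 to 0.428), at 11.2, 36.2 and 96.7 CPM, and Utf1, a chromatin factor of undifferentiated cells, was at 41, 86.6 and 118 CPM (ratio 0.474). Nanog was at 116, 235 and 197 CPM (ratio 0.493, 0.444 to 0.547) and was detected in 51.9% of Krt15+ cells and 89.4% of matched cells. After thinning to 5000 UMIs it was detected in 33% and 65.5%.

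Of the naive-state genes, Tdgf1 (Cripto), the Nodal coreceptor, was lowest, at 93.5, 285 and 266 CPM (ratio 0.328, 0.292 to 0.367). Zfp42 was at 243, 464 and 826 CPM (ratio 0.524), Dppa3 (Stella) at 9.84, 23.2 and 17.5 CPM (ratio 0.423), Prdm14, a repressor of differentiation genes, at 6.02, 13.9 and 7.57 CPM (ratio 0.431), and Esrrb at 30.1, 47.5 and 47.2 CPM (ratio 0.633). The naive genes did not all differ by as much. Klf4 was at 125 against 146 CPM (ratio 0.853), Klf5 at 127 against 134 (ratio 0.947, 0.851 to 1.05), and Socs3, the feedback inhibitor of LIF signalling, at 29.3 against 26.5 (ratio 1.10, 0.875 to 1.38). Stat3, the transcription factor downstream of LIF, was at 30.4 against 34.5 CPM (ratio 0.878, 0.704 to 1.09). Of 17 genes of the formative epiblast, the state that follows naive pluripotency, 9 had enough UMIs. All 9 were lower, while 46.3% of all genes were higher, and 4 were past the fold lower, against 12.5% of all genes. These counts describe the 9 genes and not the list. The lowest ratios were those of Etv4 (7.38 against 24.7 CPM), Lefty2 (14.5 against 47.8) and Fgf4 (8.75 against 19.7). Lefty2 was at 3.37 CPM in untreated cells, below both CX-5461 groups. Dnmt3b was at 16.1 against 18.5 CPM and Nodal at 11.5 against 11.7.

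**Figure D3:**
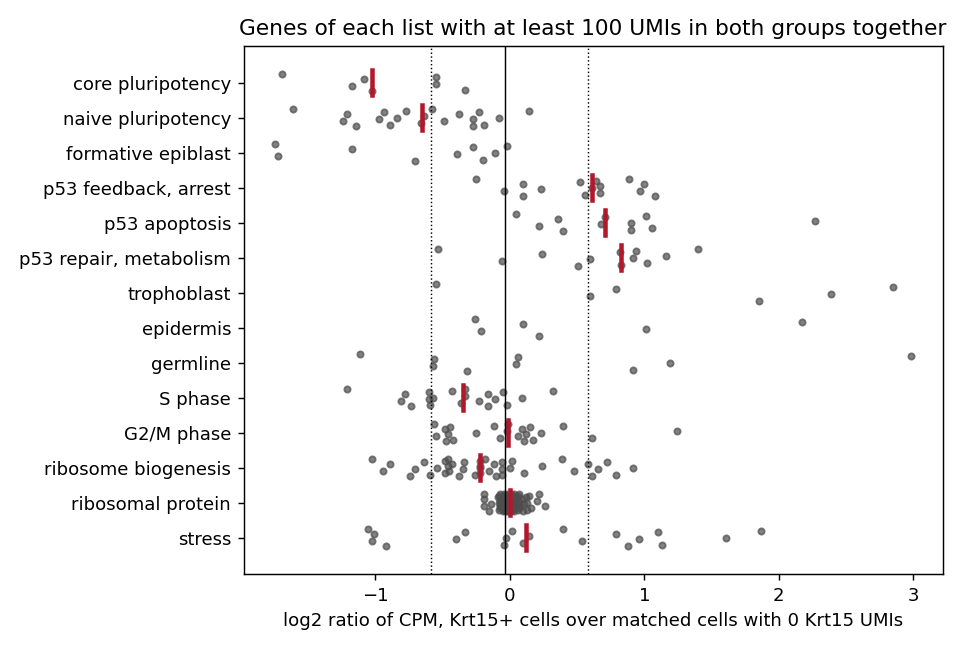
log2 ratio of CPM between Krt15+ and matched cells (horizontal axis) for each gene with at least 100 UMIs (points) in 14 lists (vertical axis); red bars are medians, drawn where at least 80% of a list's genes had that many UMIs, the solid line is the median of all 8427 genes (-0.033) and the dotted lines the 1.5-fold limits. The genes of the 3 p53 lists lie mostly to the right and the pluripotency lists to the left, and the 79 ribosomal protein genes lie around 0.

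Both lists were graded with the number of Krt15 UMIs in the cell, which is the measure that defined the cells. Over all kept CX-5461 cells, the p53 sum was 6306 CPM at 0 Krt15 UMIs, 7045 at 1, 7900 at 2, 8862 at 3 and 9231 at 4 or more, beside 3677 in kept untreated cells. The pluripotency sum was 9862, 8802, 7700, 6525 and 5934 CPM in the same order, beside 8798 in untreated cells. Tdgf1 went from 300 through 224, 133 and 80.9 to 35.2 CPM, and Nanog from 235 through 222, 152 and 93.7 to 71.4. Cdkn1a lay between 533 and 632 CPM over the 5 classes and was highest at 3 UMIs. Rgs14 was at 6.39, 25.6, 82.5, 104 and 222 CPM, so that cells with a single Krt15 UMI stood between those with none and those above the limit. The median total was 14922 UMIs at 0 and 12689 at 4 or more, so the classes differed in depth.

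**Figure D4:**
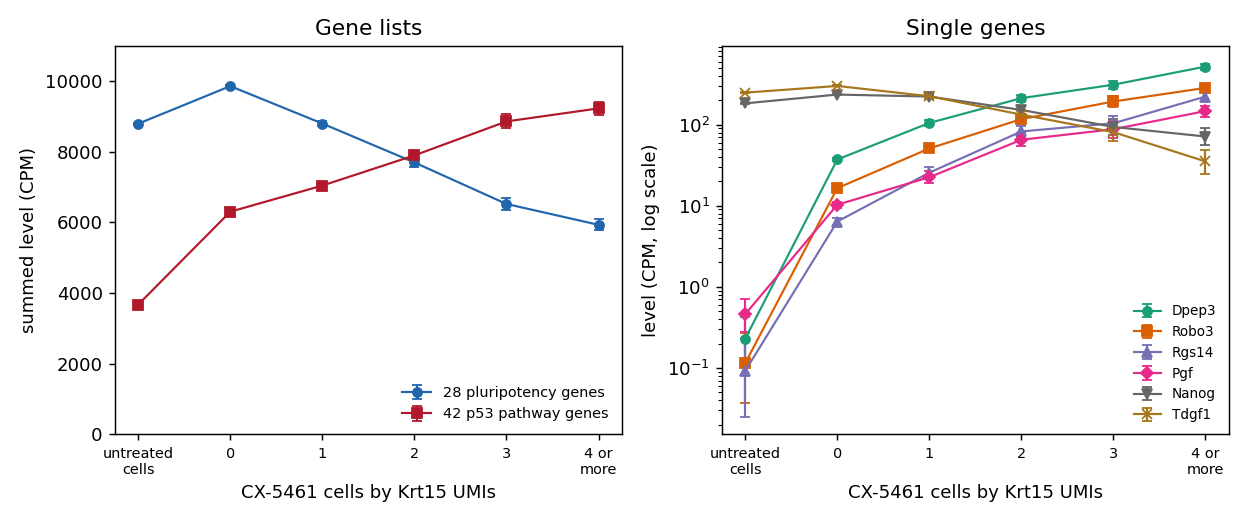
Summed CPM of the p53 and pluripotency lists (left) and CPM of single genes on a log scale (right) in kept untreated cells and in kept CX-5461 cells by their Krt15 UMIs; bars are exact 95% Poisson intervals. The p53 list goes from 6306 to 9231 CPM and the pluripotency list from 9862 to 5934 CPM between 0 and 4 or more Krt15 UMIs.

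Seen from the other side, kept CX-5461 cells were put into quartiles by the share of their UMIs on the p53 list. Krt15+ cells made up 0.794% (0.343 to 1.56) of the lowest quartile, 1.69% and 4.37% of the middle ones and 19.4% (17 to 21.9) of the highest, which held 73.9% of all Krt15+ cells. By the pluripotency list they made up 18.1% (15.7 to 20.6) of the lowest quartile and 1.09% (0.547 to 1.95) of the highest, and 68.9% of them were in the lowest. Median totals were 13000 UMIs in the highest p53 quartile and 16160 in the lowest, and the part of depth in these shares was not tested.

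Several keratins other than Krt15 were higher in the same cells. Of the 5 keratin genes with at least 100 UMIs, 3 were past the fold higher and 1 lower, against 15.7% and 12.5% of all genes. A scarce keratin could reach that minimum through high counts in Krt15+ cells, so these counts describe the 5 genes only. Krt7, a type II keratin of simple epithelia, was the most abundant, at 569 CPM in Krt15+ cells, 158 in matched and 0.638 in untreated cells (ratio 3.61, 3.38 to 3.85). Krt5, the type II keratin of basal epidermis, was at 75.2, 16.7 and 0.0912 CPM (ratio 4.51), and Krt19, a type I keratin of simple and progenitor epithelia, at 26.8, 5.1 and 0.456 CPM (ratio 5.25). Krt42 was lower, at 6.29, 15.6 and 25.6 CPM (ratio 0.403), and Krt10, of differentiated epidermis, was at 10.7 against 12.3 CPM. Among keratins with fewer UMIs, Krt17 had 43 UMIs against 19 (11.8 and 1.73 CPM) and Krt33a 21 against 8 (5.74 and 0.729 CPM). Krt8 and Krt18, the pair of simple epithelia, had 8 and 13 UMIs in all 264 cells. In Krt15+, matched and untreated cells Krt8 was at 2.19, 1.73 and 8.67 CPM, thus highest in untreated cells. Krt18 was at 3.55, 1.64 and 2.55 CPM. Krt14, the usual partner of Krt5, had 5 UMIs in Krt15+ cells and 0 in matched cells.

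Krt15 lies in the type I keratin cluster. Within 250 kb on either side the annotation holds 38 other genes, 14 of them keratins, and 20 of the 38 had 0 UMIs in all 3 groups of cells. Of these genes 6 had at least 100 UMIs, with 1 past the fold higher and 3 lower, against 15.7% and 12.5% of all genes. With 6 genes these counts describe the genes and not the region. The higher one was Krt19, the nearest annotated gene on the side of the start of Krt15 (chr11:100140810-100148665). It had 98 UMIs in Krt15+ and 56 in matched cells, so it reached the minimum through its counts in Krt15+ cells. Hap1 (4.37 against 12.1 CPM), Gm10039 (350 against 540 CPM) and Krt42 were past the fold lower. Eif1, a translation initiation factor, was at 1397 against 1313 CPM and Jup (plakoglobin) at 48.4 against 57.8.

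Few genes of the lineage lists had 100 UMIs, and scarce ones could reach that number through high counts in Krt15+ cells, so counts among them describe these genes and not the lists. Over all genes 15.7% were past the fold higher and 12.5% lower. The sums take all genes of a list. Of the 20 trophoblast genes 6 had enough UMIs. Past the fold higher were Pgf, Krt19, Krt7, Id2 (11.5 against 6.65 CPM) and Lgals3 (32.3 against 21.3 CPM). Tfap2c, a transcription factor of trophoblast and germ cells, was at 15.6 against 22.9 CPM. The trophoblast sum had a ratio of 3.12 (2.96 to 3.29), 2.27 without Krt7 and 2.90 without Pgf. Of the 18 germline genes 9 had enough UMIs, 5 of them higher and 4 lower, with a median log2 ratio of 0.05. Dpep3, Hormad1, a meiotic chromosome axis protein (109 against 47.8 CPM), and Stra8, which is stimulated by retinoic acid (41 against 21.6 CPM), were past the fold higher. Nanos3 was past the fold lower (7.38 against 16 CPM). Dazl (ratio 0.672) and Sycp3 (ratio 0.676) were lower by less than the fold. The germline sum had a ratio of 2.06, and 1.24 (1.16 to 1.33) without Dpep3. Of the neuroectoderm list 3 genes had enough UMIs. Its sum had a ratio of 2.55 but its median log2 ratio was -0.32, since Robo3 carried the sum. Without Robo3 the ratio was 0.487 (0.394 to 0.596), with Tubb3, a neuronal tubulin, at 17.2 against 44 CPM.

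In the mesoderm list, Wnt3, a Wnt ligand of the primitive streak, was at 29.8, 7.38 and 0.365 CPM (ratio 4.04, 3 to 5.45), and T (brachyury) at 9.3 against 6.47 CPM, with an interval of its ratio from 0.925 to 2.19. Of the 20 epidermis genes 6 had enough UMIs, with Krt5 and Perp past the fold higher, against 15.7% of all genes. The sum had a ratio of 1.64, or 1.46 without Krt5. Sfn (53.3 against 49.9 CPM), Itga6 (36.9 against 31.7 CPM) and Jup were within the fold. Sfn was detected in fewer Krt15+ than matched cells (27.3% and 39%), with 20 of its 195 UMIs in 1 Krt15+ cell. In primitive endoderm 1 gene had enough UMIs, Sparc, at 203 against 172 CPM, with 141 of its 742 UMIs in 1 cell. The fibroblast list, whose collagens the choice of cells had limited, had 4 genes with enough UMIs. Past the fold lower were 3, against 12.5% of all genes, namely Vim (141 against 216 CPM), Fn1 (73.3 against 126 CPM) and Acta2. Few cells decided Acta2, and its log2 ratio was 0.78 with at least 3 Krt15 UMIs required. Col1a1 was past the fold higher (20 against 10.1 CPM). In the macrophage list Cd68, a lysosomal membrane protein, was at 44.8 against 24.8 CPM and Laptm5 at 45.1 against 48.

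The medians of the cell cycle and ribosome lists lay closer to 0 than those of the p53 and pluripotency lists. Of 20 S-phase genes 18 were lower and 2 higher, against 46.3% higher among all genes, with 7 past the fold lower against 12.5% of all genes and a median log2 ratio of -0.35. Among the lower ones were Ccne1 (14.5 against 33.5 CPM), Cdc6 (9.84 against 17.2 CPM) and Uhrf1 (46.5 against 80 CPM), while Rrm2, a ribonucleotide reductase subunit, was at 159 against 127 CPM. The 22 G2/M genes had a median of -0.01, with Bub1b, a mitotic checkpoint kinase, higher (135 against 56.8 CPM, ratio 2.37) and Cdk1 lower by less than the fold (133 against 195 CPM). Of 41 ribosome biogenesis genes 5 were past the fold higher and 7 lower, which is near the 15.7% and 12.5% of all genes, with a median of -0.22. Polr1a, the largest subunit of the enzyme that CX-5461 inhibits, was at 101, 58.8 and 37.7 CPM (ratio 1.73), and Taf1b, of its promoter selectivity factor, at 26.2 against 13.9 CPM, whereas Ubtf, Nolc1 and Tcof1, nucleolar factors of rRNA transcription and its regulation, were at ratios of 0.541, 0.521 and 0.493. The 79 ribosomal protein genes were all within the fold, and their sum had a ratio of 1.01.

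Of 20 stress genes 7 were past the fold higher and 4 lower, against 15.7% and 12.5% of all genes, and the median log2 ratio of 0.12 and the log2 ratio of the sums, -0.01, differed in sign. Ddit4, an inhibitor of mTOR signalling, was at 141, 46.1 and 5.84 CPM (ratio 3.05, 2.69 to 3.45), and Atf3, a stress-induced transcription factor, at 39.6, 10.8 and 2.92 CPM (ratio 3.65). Asns, an amino acid response gene, was at 129, 261 and 304 CPM (ratio 0.494), Hsph1, a chaperone, at 18 against 37.5 CPM, and Egr1, an immediate early gene, at 40.7 against 82 CPM. Ddit4 and Atf3 were also higher in matched than in untreated cells.

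The Krt15+ cells lay near each other in expression space, though not as a closed group. In 16 principal components computed without Krt15 but with its companions, Krt15+ cells made up a mean of 43.1% of the 20 nearest cells of a Krt15+ cell, 11.4% of those of a cell with 1 Krt15 UMI, 2.93% of those of a matched cell and 6% of those of all kept cells. At least 5 such neighbours were found for 170 Krt15+ cells (64.4%) and 26 matched cells (3.28%). No such neighbour was found for 30 Krt15+ cells (11.4%) and 611 matched cells (77.1%). Cells with 1 Krt15 UMI were in between, with at least 5 such neighbours for 72 of 409 (17.6%).

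**Figure D5:**
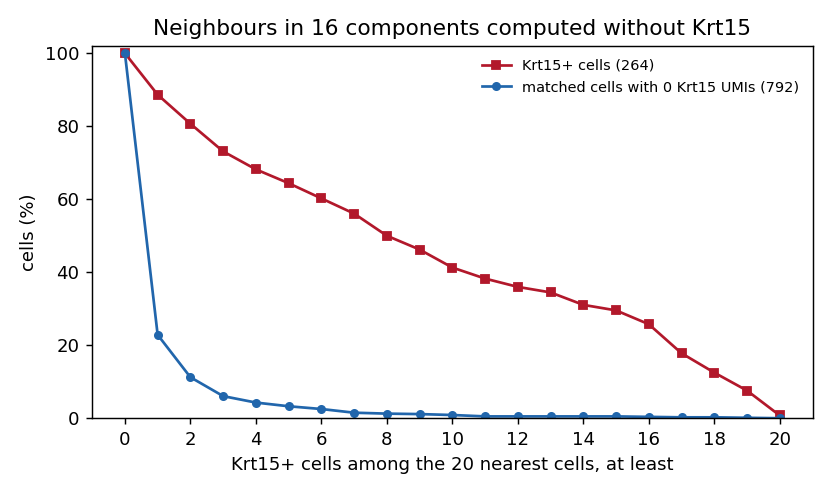
Percentage of cells (vertical axis) with at least a given number of Krt15+ cells among their 20 nearest cells (horizontal axis), for the 264 Krt15+ cells and the 792 matched cells. At 5 neighbours the curves stand at 64.4% and 3.28%.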

How the data were processed

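The measurements were droplet RNA-seq of untreated and CX-5461-treated mouse ES cells, 4 samples per condition in the labels and 1 table per condition in the deposit. The deposited values are unnormalised UMI counts that the authors made from 10x Genomics 3' V2 libraries with a pipeline published earlier. The submitters' notes name build mm10 and Seurat 2.3.4. Cell names are serial numbers, so barcodes shared between libraries could not be counted. The deposited counts hold no filter on cells, whereas the study set a minimum of 500 UMIs and a mitochondrial limit of 0.2. A column of counts shared between genes was used to check Krt15 alone.

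Symbols and coordinates came from GENCODE for GRCm38 (54079 of 54146 identifiers matched without version). UMIs were summed over cells and expressed as CPM. Poisson, Clopper-Pearson and conditional binomial intervals (95%) cover counting error only. With 1 library per condition there is no test, and a gene was called past a fold of 1.5 among those with at least 100 UMIs over both groups. Named were the marker genes, the up to 3 highest and lowest genes of each list, 10 standard p53 and pluripotency genes, the 10 highest and lowest genes, keratins with at least 20 UMIs and genes within 250 kb of Krt15. Rgs14, Robo3, Dpep3 and Pgf, all other lists, the choice of cells and the rules were set with earlier results of these data known. No doublet caller was run, and cells with more than 2 times the median total were left out in an alternative. Other alternatives changed the matching, the Krt15 limit, the scaling, the depth, the cell filter, the count minimum and the fold. Neighbours were found over 2000 variable genes. The comparison was tested on simulated Poisson counts of the summed groups, which hold no spread between cells. Python 3.11.15, NumPy 2.4.6, SciPy 1.17.1 and Matplotlib 3.10.9 were used.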

Additional observations from a re-analysis of the deposited data

How the results depend on the processing

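The log2 ratio of the summed p53 list was 0.39 and that of the pluripotency list -0.47. Against all kept cells with 0 Krt15 UMIs, without matching, they were 0.43 and -0.51, with at least 1 Krt15 UMI 0.24 and -0.26, with at least 3 UMIs 0.49 and -0.65, and scaled by the median ratio 0.42 and -0.44. The pluripotency list was at -0.50 both as the mean of each cell's CPM and with cells thinned to 5000 UMIs. Genes past the fold, 1325 higher and 1052 lower, numbered 2208 and 1930 without matching, 704 and 696 after thinning, 2647 and 2150 with a minimum of 20 UMIs, 4926 and 2992 with no minimum, and 667 and 287 at a fold of 2, and 477 were lower with at least 1 Krt15 UMI. In the lineage lists 14 higher and 9 lower genes, beside 15.7% and 12.5% of all genes, became 24 and 17 without matching and 9 higher after thinning. The counts over all genes also rose without matching and fell after thinning, so the lineage counts describe their genes and not the lists. Krt15+ cells made up 2.48% instead of 6.55% of kept cells after thinning, since depth limits the detection of 2 UMIs. The cause of the other changes was not tested.

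Of 738 values recomputed for 82 named genes, 735 kept their sign, but 142 moved outside the counting interval of the main value. Of the 675 values of the 75 genes past the fold, 640 stayed past it in the same direction. Of 81 recomputed sums of lineage lists, 20 moved outside that interval and 0 were reversed. Acta2 turned to 0.78 with at least 3 Krt15 UMIs, and Gm20767 turned to -0.69 without cells with at least 5 2C UMIs, a setting chosen after seeing the data. No paired analysis was possible because the tables carry no sample or replicate number, and for the same reason no replicate could be left out.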
